A study of Mus musculus with 18 samples.

Results

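This report describes 33 genes of the melanocyte lineage and of pigmentation, taken as a fixed list of symbols and looked up among the 50600 genes of the count table. All 33 were found and are protein-coding, and 32 passed the filter on low counts that left 16927 genes for testing. The exception was Bcan, which encodes the matrix proteoglycan brevican and reached at most 12 counts in any tumor. The tissue was B16F10 tumors. B16F10 is a pigmented mouse melanoma line, and in this study the cells were implanted under the skin of the right flank of C57BL/6 mice, which the methods describe as females bought at 5 to 6 weeks of age. All groups therefore share the same line and the same strain.

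Tumors were injected directly and collected 24 h after the last dose, and the second dose, where given, followed the first after 3 days. CDN2, which the labels call CL656, is a cyclic dinucleotide that activates the innate immune sensor STING. The groups after 1 dose were PBS, unloaded extracellular vesicles (EVs), exoCDN2 (0.1 µg of CDN2 carried in EVs), free CDN2 at 20 µg and free CDN2 at 100 µg. The groups after 2 doses were PBS, exoCDN2 (0.1 µg) and free CDN2 at 20 µg. Each of these 8 groups had 2 tumors, so 16 tumors entered the tests. Another 2 tumors received 2 doses of CL656 with no amount in their labels, entered no test, and are given as single values at the end.

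Melanocytes are made and maintained by a small set of transcription factors. SOX10 and PAX3 switch on Mitf, and MITF in turn drives the enzymes, structural proteins and transporters of the melanosome, the organelle in which melanin is made. MITF binds short DNA elements of the E-box type, of which CATGTG and CACGTG are the usual forms at pigment gene promoters. Pigment genes are widely used as markers of melanoma cells in bulk tumor RNA, where immune and stromal cells contribute little of them, and their level also follows the differentiation state of the melanoma cells.

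Total expected counts ranged from 21608895 to 65983630 per tumor. The 2 tumors given 2 doses of CDN2 stood apart from each other: 14.0% of tested genes and 14 of 32 members differed more than 2-fold between them (Pearson correlation across genes 0.961, on log2 of normalised CPM plus 1), against 0 or 1 members in every other group (0.989 to 0.998). Tumor 1 of that pair was also the library of the lowest total. Results that rest on this pair are therefore given per tumor and with each tumor left out. CPM here means counts scaled to a common library total, normalised by TMM factors. P-values set a difference against the spread between tumors of the same group, pooled for each gene over all 8 groups. This is not the spread of the compared groups alone. Since each group has only 2 tumors, an exact permutation test of 2 against 2 cannot go below 0.333 (two-sided). All tests are therefore edgeR quasi-likelihood tests over all genes, with Benjamini-Hochberg adjusted p, and a gene was "called" where its adjusted p was below 0.05 and it differed by more than a ratio of 2.

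Promoter sequences are shown for 6 members of the sets described below, chosen because each holds the MITF-type E-box letters. Tyr, Tyrp1 and Dct encode the 3 melanin enzymes and Slc24a5 a melanosomal ion exchanger, and their level was close to PBS after 1 dose. Mlph and Mc1r had values below PBS in all 6 tumors given CDN2 once, of which Mc1r at 100 µg was called. Each line gives the 250 bases before the annotated start site, 5′ to 3′ on the gene's strand, from RefSeq (GRCm38.p6), in lower case with CATGTG or CACGTG, on either strand, in capitals. The positions are chr7:87493513-87493762 (minus strand) for Tyr, chr4:80833963-80834212 (plus) for Tyrp1, chr14:118052247-118052496 (minus) for Dct, chr2:125067877-125068126 (plus) for Slc24a5, chr1:90914850-90915099 (plus) for Mlph and chr8:123406832-123407081 (plus) for Mc1r.
Tyr: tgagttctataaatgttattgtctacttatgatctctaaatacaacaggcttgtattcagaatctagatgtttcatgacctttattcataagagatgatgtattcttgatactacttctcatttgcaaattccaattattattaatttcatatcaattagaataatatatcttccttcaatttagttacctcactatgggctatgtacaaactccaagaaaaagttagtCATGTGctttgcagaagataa
Tyrp1: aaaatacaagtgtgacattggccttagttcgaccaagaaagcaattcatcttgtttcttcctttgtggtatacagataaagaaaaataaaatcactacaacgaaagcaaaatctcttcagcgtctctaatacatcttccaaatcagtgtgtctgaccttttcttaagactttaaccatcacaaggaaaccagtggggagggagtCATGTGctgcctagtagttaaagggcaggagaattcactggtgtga
Dct: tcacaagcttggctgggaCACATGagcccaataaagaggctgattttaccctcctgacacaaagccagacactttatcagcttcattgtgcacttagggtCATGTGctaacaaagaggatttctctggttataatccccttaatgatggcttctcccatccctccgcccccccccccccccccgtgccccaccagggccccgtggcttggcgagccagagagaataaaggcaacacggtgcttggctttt
Slc24a5: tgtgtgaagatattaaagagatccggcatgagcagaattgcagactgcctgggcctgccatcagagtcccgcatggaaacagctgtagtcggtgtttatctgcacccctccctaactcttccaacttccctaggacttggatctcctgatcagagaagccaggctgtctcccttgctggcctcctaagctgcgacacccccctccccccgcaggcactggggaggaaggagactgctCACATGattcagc
Mlph: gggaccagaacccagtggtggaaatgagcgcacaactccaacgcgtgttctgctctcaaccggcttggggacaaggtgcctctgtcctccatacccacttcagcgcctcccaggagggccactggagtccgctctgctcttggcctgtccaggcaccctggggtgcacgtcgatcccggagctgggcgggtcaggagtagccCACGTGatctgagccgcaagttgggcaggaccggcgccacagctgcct
Mc1r: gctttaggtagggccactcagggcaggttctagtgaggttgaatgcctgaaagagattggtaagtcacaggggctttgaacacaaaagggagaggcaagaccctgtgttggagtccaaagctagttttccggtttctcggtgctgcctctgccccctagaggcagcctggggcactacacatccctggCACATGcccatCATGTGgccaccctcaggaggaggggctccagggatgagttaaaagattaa

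The CATGTG element was centred 18 bases before the start site in Tyr, 43 in Tyrp1, 10 in Slc24a5, 59 and 48 in Mc1r, and 229 and 147 in Dct. Mlph had CACGTG 45 bases before its start. Windows of 300 bases (250 before to 50 after the start site) were on hand for 25 of the 33 members, and 8 of these 25 (32.0%) held CATGTG on either strand in any window, against 15.9% of the 27025 genes with a window. By windows, 9 of 32 (28.1%) held CATGTG, against 14.2% of 32851, and 5 of 32 (15.6%) held CACGTG, against 7.15%. CATGTG was also found in Oca2, Tspan10 and Trpm1, and CACGTG in Trpm1, Met, Hps5 and Rab27a. No element was found in any of the 3 Mitf windows or in those of Kit. A match is a description of the sequence and not a bound site.

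In the PBS tumors the pigment program was abundant. Per kilobase of exon, the median level over the 4 PBS tumors was 2609 normalised CPM for Tyrp1, 1972 for Pmel (the fibril protein of the melanosome), 1175 for Dct, 854 for Gpnmb and 648 for Mlana, the melanosomal antigen MART-1. The regulators were lower on this scale, at 188 for Sox10, 91.5 for Mitf, 27.9 for Pax3 and 8.80 for Tfap2a. Kit and Ednrb, receptors that melanoblasts need for migration and survival, were the lowest tested members, at 1.62 and 2.03. All 7 defining pigment genes (Sox10, Pmel, Mlana, Tyr, Tyrp1, Dct and Slc45a2, called the pigment core here) had 2218 counts or more in every tumor, so the label of the tissue as pigmented melanoma held in all 18.

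Unloaded EVs left the members near PBS after 1 dose. None of the 32 was called by edgeR, none had an unadjusted p under 0.05, and DESeq2 called 0, against 0% of all genes called. The median log2 fold change of the members was 0.07, with a range of -0.23 to 0.66. The 2 PBS groups, which differ in the number of injections and in 3 days of tumor growth, also gave 0 members called by edgeR, 0 at an unadjusted p under 0.05 and 0 by DESeq2, with 1.1% of all genes called.

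After 1 dose, Mitf, Sox10, Mlph and Mc1r had values below both PBS tumors in all 6 tumors given CDN2. Of these, Mitf at 20 µg and Mc1r at 100 µg were called. Trpm1, Hps5 and Rab32 also lay below both PBS tumors in all 6, without a call. Trpm1 was 713 to 904 normalised CPM against 949 and 959, Hps5 31.7 to 44.5 against 52.4 and 50.4. Rab32 was 33.2 to 40.9 against 43.7 and 44.9. The melanin enzymes had values close to PBS. Of all genes tested, 36.4% lay below both PBS tumors with exoCDN2, 29.5% at 20 µg and 34.1% at 100 µg. These shares are for each group alone. The share of all genes below PBS in all 6 tumors at once was not counted, with or without the unloaded EV tumors. The PBS pair was also close, with 0.13% of tested genes more than 2-fold apart, so small falls can lie below both. Mitf, the master regulator of the lineage (ENSMUSG00000035158, chr6:97807052-98021349), had 623 and 672 normalised CPM in the PBS tumors and 609 and 493 with unloaded EVs. It had 269 and 218 with exoCDN2, 242 and 169 with CDN2 at 20 µg, and 232 and 279 with CDN2 at 100 µg. As mean ± SD (n = 2) this was 647 ± 34.0 under PBS, 244 ± 35.9 with exoCDN2, 205 ± 51.7 at 20 µg and 256 ± 33.7 at 100 µg. All 6 tumors that received CDN2 in either form lay below all 4 that did not. The log2 fold change against PBS was -1.66 (SE 0.39, adjusted p 0.032) for CDN2 at 20 µg, which was called, and -1.41 (SE 0.38, adjusted p 0.074) for exoCDN2 and -1.34 (SE 0.38, adjusted p 0.095) for CDN2 at 100 µg, which were not. In bulk tumor RNA, fewer melanoma cells and less of a transcript per cell cannot be told apart.

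Sox10, which specifies the neural crest lineage and activates Mitf, had 583 and 567 normalised CPM in PBS tumors, 346 and 311 with exoCDN2, 433 and 216 with CDN2 at 20 µg and 233 and 250 with CDN2 at 100 µg. All 6 treated values were below both PBS values, with log2 fold changes of -0.81 (SE 0.32, adjusted p 0.22), -0.83 (SE 0.32, adjusted p 0.21) and -1.25 (SE 0.32, adjusted p 0.061), none of them called. The partner factors did not share this pattern. Pax3, with 185 and 171 normalised CPM under PBS, stayed between 127 and 188 in the 6 treated tumors, and Tfap2a, with 46.3 and 42.8 under PBS, between 34.5 and 52.4. Within a tumor, the ratio of Mitf to Pax3 was 2.44 to 3.92 in the 4 tumors without CDN2 and 1.32 to 1.49 in the 6 with it, a measure that does not depend on how libraries are scaled.

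The melanocortin receptor gene Mc1r (ENSMUSG00000074037, chr8:123407107-123410744), which receives the main hormonal signal for dark pigment, had 303 and 317 normalised CPM under PBS. It had 174 and 184 with exoCDN2, 213 and 144 with CDN2 at 20 µg, and 126 and 142 with CDN2 at 100 µg, and unloaded EVs gave 259 and 305, so that no tumor given CDN2 overlapped one that was not. The fall at 100 µg was called (log2 fold change -1.21, SE 0.21, adjusted p 0.0092). The values of -0.79 (adjusted p 0.064) for exoCDN2 and -0.80 (adjusted p 0.056) at 20 µg missed the threshold. Mlph, the linker that ties melanosomes to the motor myosin Va, had 444 and 442 under PBS against 198 and 256, 261 and 203, and 193 and 219 in the same order of treatments. Its log2 fold changes of -0.96, -0.93 and -1.11 had adjusted p of 0.19, 0.19 and 0.13.

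The melanin enzymes had values close to PBS. Tyr, the rate-limiting enzyme of melanin synthesis (ENSMUSG00000004651, chr7:87424771-87493512), had 770 and 733 normalised CPM under PBS, 827 and 793 with exoCDN2, 789 and 658 with CDN2 at 20 µg and 783 and 716 at 100 µg. Its log2 fold changes were 0.11, -0.06 and 0.00 (SE 0.38 each). Tyrp1, Dct and Mlana were within 0.17 of 0 on the log2 scale in all 3 groups. Pmel was 4551 and 4365 under PBS and reached 6230 and 5827 with CDN2 at 20 µg, a log2 fold change of 0.44 (SE 0.27, adjusted p 0.48). The pigment core summed to 21383 and 20822 normalised CPM under PBS, to 20951 to 23519 in the 6 treated tumors and to 23138 and 21940 with unloaded EVs, or 2.15% to 2.44% of all counts in these 10 tumors.

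The ratio of Tyr to Mitf within a tumor was 1.24 and 1.09 under PBS and 1.45 and 1.51 with unloaded EVs, and 3.07 and 3.63 with exoCDN2, 3.26 and 3.91 with CDN2 at 20 µg and 3.38 and 2.56 at 100 µg. The ratio of Tyrp1 to Mitf was 10.2 to 14.5 in the 4 tumors without CDN2 and 26.3 to 44.9 in the 6 with it. These ratios are given as descriptions, since 2 tumors a group allow no exact test below 0.333. The plot of levels by tumor shows the contrast between the upper row, where the groups given CDN2 once sit low, and the lower row, where they do not.

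**Figure D1:**
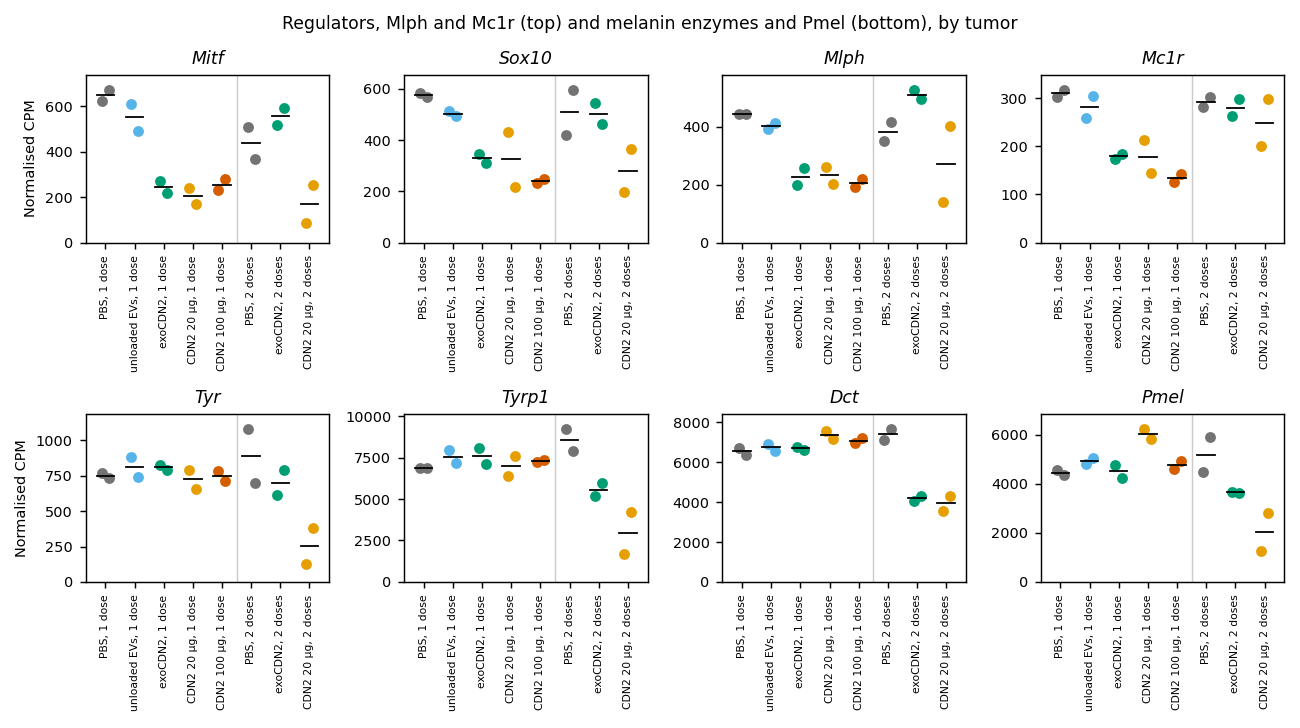
Normalised CPM (vertical axis, linear, from 0) of 8 members in each tumor, by group (horizontal axis), with 1 point per tumor and a line at the mean of 2 tumors; a vertical grey line divides 1 dose from 2 doses. Mitf, Sox10, Mlph and Mc1r have lower means than PBS in the 3 CDN2 groups after 1 dose (called only for Mitf at 20 µg and Mc1r at 100 µg), Tyr, Tyrp1, Dct and Pmel lie near PBS or above it, and the latter 4 have lower means in both treated groups after 2 doses.

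Few members were called after 1 dose. Of 32 members, edgeR called 0 with exoCDN2 (2.62% of all genes called), 2 lower with CDN2 at 20 µg (3.14%, and 0.886% lower) and 1 lower at 100 µg (2.44%, and 0.62% lower). With exoCDN2, 5 members were lower at an unadjusted p under 0.05 and DESeq2 called 1. Member medians were -0.10, -0.04 and -0.08 on the log2 scale. Each of these calls was lost whichever of the 4 tumors was left out: Mitf at 20 µg had adjusted p between 0.077 and 0.34 without each of the 4 tumors in turn, Kit at 20 µg between 0.077 and 0.19, and Mc1r at 100 µg between 0.065 and 0.12.

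These tests pool the spread over all 8 groups, including the divergent pair given 2 doses of CDN2. In a fit without that pair, added after seeing the data, the fold changes of Mitf were -1.38, -1.65 and -1.34 for exoCDN2, CDN2 at 20 µg and CDN2 at 100 µg, with adjusted p of 0.0022, 0.00069 and 0.0035, and Mitf was called in all 3. In that fit Mlph had adjusted p of 0.0033, 0.0032 and 0.0016, and Sox10 was called at 100 µg (-1.25, adjusted p 0.015). The share of all genes called was also higher in that fit, at 4.25%, 4.74% and 3.95%. Among markers of other cells, 5 neutrophil genes summed to 4.42 and 4.69 normalised CPM under PBS and to 58.6 and 36.0 with exoCDN2 and 12.1 to 28.2 in the 4 tumors given free CDN2, with 2, 1 and 0 genes called higher with exoCDN2, 20 µg and 100 µg. The 6 T and NK cell genes summed to 7.37 and 9.95 under PBS and to 1.12 and 1.36 at 100 µg, with 4 of 6 called lower. These values are near the floor, with Cd8a at 0 and 0.272 at 100 µg. The sums were 2.34 and 3.61 with exoCDN2, 5.22 and 9.77 at 20 µg and 2.44 and 6.42 with unloaded EVs. PBS after 2 doses gave 1.98 and 1.18, so low sums were not particular to 100 µg. The 4 skeletal muscle genes summed to 47.8 and 91.9 under PBS, 449 and 133 with exoCDN2 and 327 and 378 at 100 µg, with 0 called. The part of these cells in the pigment gene values was not tested.

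Kit and Ednrb had their lowest and Ptgds its highest values of 1 dose at 20 µg. Kit, the stem cell factor receptor (ENSMUSG00000005672, chr5:75574916-75656722), had 15.3 and 12.8 normalised CPM under PBS, 12.9 ± 1.2 (mean ± SD, n = 2) with exoCDN2, 14.1 and 13.3 at 100 µg, but 5.37 and 4.79 at 20 µg (log2 fold change -1.47, SE 0.30, adjusted p 0.017). Ednrb, the endothelin receptor, had 7.72 and 8.93 under PBS and 3.29 and 1.99 at 20 µg (-1.65, SE 0.52, adjusted p 0.12), which was not called. Ptgds, which makes prostaglandin D2 and is active in melanocytes, was 628 and 602 under PBS and 1257 and 960 at 20 µg. It rose by 0.85 (SE 0.18, adjusted p 0.018), short of a ratio of 2.

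The direct comparisons gave the same picture for Ptgds. It was lower with exoCDN2 than with CDN2 at 20 µg (-1.16, SE 0.18, adjusted p 0.038) and lower at 100 µg than at 20 µg (-1.15, SE 0.18, adjusted p 0.031), the only member called in either, where 0.608% and 0.455% of all genes were called, 0.408% and 0.224% of all genes lower. Both lost the call without any single tumor of the comparison. Kit missed the threshold in both (1.34, adjusted p 0.057, and 1.43, adjusted p 0.059). The amounts of CDN2 in these comparisons differ, 0.1 µg against 20 µg for exoCDN2. Endothelial cells can also express Ednrb, and mast cells express Kit. The 5 endothelial markers, of which 3 were called lower at 20 µg, summed to 43.6 and 46.9 normalised CPM in the tumors given 20 µg once and to 89.3 to 121 in the other 8 tumors of 1 dose. The 5 mast cell markers summed to 4.38 and 7.36 in the tumors given 20 µg and to 1.79 and 4.45 under PBS. The part of these cells in the Kit and Ednrb values was not tested. Against unloaded EVs, exoCDN2 gave 0 members called by edgeR (2.95% of all genes called), 1 higher and 4 lower at an unadjusted p under 0.05, and 1 by DESeq2.

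**Figure D2:**
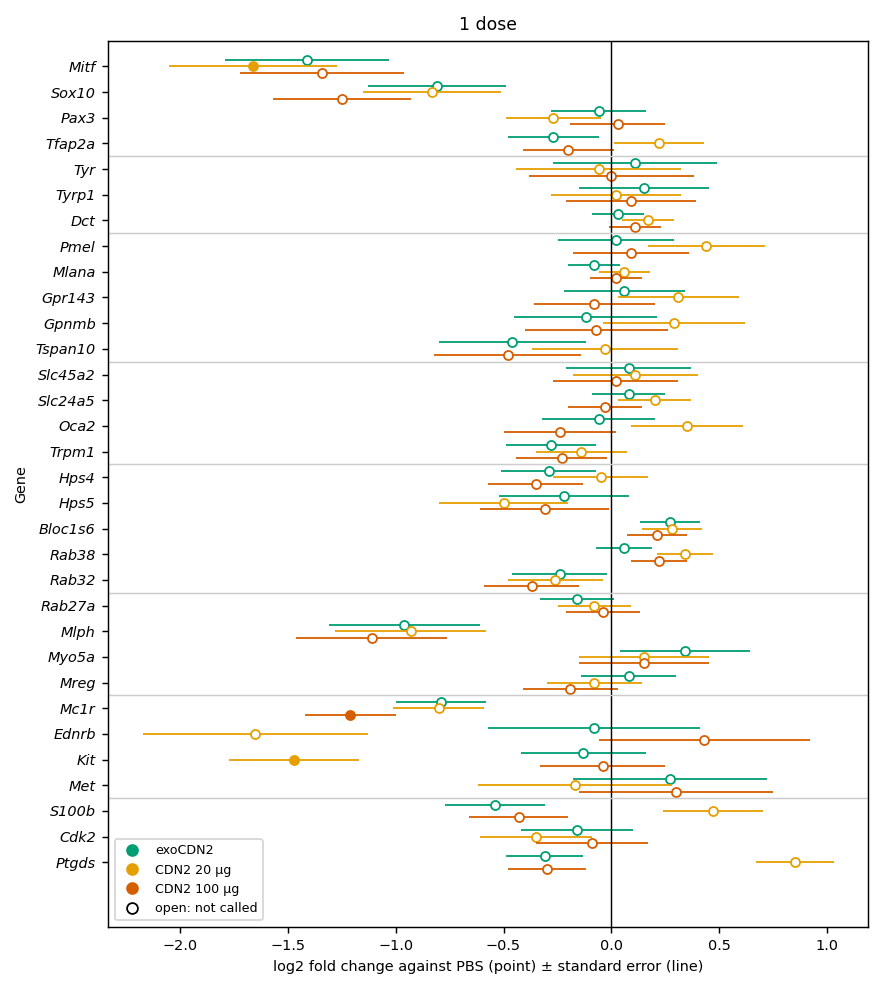
Log2 fold change against PBS after 1 dose (horizontal axis, point, with its standard error as a line) for the 32 tested members (vertical axis, grouped by role), in 3 colors for exoCDN2, CDN2 at 20 µg and CDN2 at 100 µg; filled points were called. Only Mitf and Kit at 20 µg and Mc1r at 100 µg are filled, and most members lie near 0.

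After 2 doses of free CDN2 most of the program was lower. Of 32 members, 15 fell and 1 rose, where 10.6% of all genes were called lower, 20% higher and 30.6% either way, and the median member log2 fold change was -0.92 against 0.00 for all genes tested. Without the limit on the ratio, 22 members were lower (23.2% of all genes) and 1 higher (27.1%). With only the groups compared in the fit, 8 members were called in place of 16. The tumors of the groups did not overlap for 24 members that were lower, where 31.2% of all genes did the same. The 2 treated tumors were unequal: the median member stood at 37.6% of the PBS mean in tumor 1 and at 61.0% in tumor 2, and 21 and 9 members were under 50%. Without tumor 1 the number called was 10, all lower, and without tumor 2 it was 24, of which 23 were lower. Of the 16 calls, 8 were kept without tumor 1, 16 without tumor 2, 13 without PBS tumor 1 and 14 without PBS tumor 2. The 8 lost without tumor 1 kept an adjusted p under 0.05 but came under the ratio, at -0.90 for Pmel, -0.59 for Tspan10, -0.63 for Gpr143, -0.81 for Mitf, -0.95 for Met, -0.54 for Hps5, -0.78 for Cdk2 and 0.64 for S100b. Of the 23 members past an adjusted p of 0.05, 17 stayed past it whichever of the 4 tumors was left out.

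Of the 3 melanin enzymes, Tyr had 1079 and 702 normalised CPM under PBS and 125 and 382 with CDN2 (log2 fold change -1.81, SE 0.39, adjusted p 0.0026). Tyrp1, which acts late in eumelanin synthesis (ENSMUSG00000005994, chr4:80834123-80851719), had 9215 and 7872 against 1684 and 4190 (-1.54, SE 0.31, adjusted p 0.0017). For both genes tumor 1 was the lower of the treated pair and both treated tumors lay under both PBS tumors. Dct, the tautomerase of the same pathway (ENSMUSG00000022129, chr14:118012790-118052244), had 7128 and 7668 against 3557 and 4318 (-0.91, SE 0.12, adjusted p 0.00019), with a mean ± SD (n = 2) of 7398 ± 382 under PBS and 3937 ± 538 with CDN2. Its treated tumors were nearer to each other than those of Tyr (891 ± 267 under PBS and 253 ± 182 with CDN2).

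Among structural genes, Pmel (ENSMUSG00000025359, chr10:128704195-128720238) went from 4489 and 5893 to 1265 and 2808 (-1.35, adjusted p 0.002), Tspan10 fell by 1.15 and Gpr143, a melanosomal receptor, by 1.09 on the log2 scale. Without PBS tumor 2 the calls of Tspan10 (-1.06, adjusted p 0.068) and Gpr143 (-0.98, adjusted p 0.043) were also lost. Mlana was 696 and 759 under PBS and 529 and 591 with CDN2 (-0.38, SE 0.12, adjusted p 0.021), a far smaller change. It did not stay past the threshold with each tumor left out. Gpnmb, which macrophages also express, was 4728 and 6395 against 1680 and 4519 (-0.84, SE 0.33, adjusted p 0.051) and missed the threshold. The ratio of Pmel to Mlana within a tumor was 6.45 and 7.77 under PBS and 2.39 and 4.75 with 2 doses of CDN2.

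All 4 transporters and channels fell: the solute carrier Slc45a2 by 1.55 (SE 0.30, adjusted p 0.0015), the melanosomal anion channel gene Oca2 by 1.45 (SE 0.27, adjusted p 0.0012), the cation channel gene Trpm1 by 1.31 (SE 0.21, adjusted p 0.00047) and Slc24a5 by 1.27 (SE 0.17, adjusted p 0.00017) on the log2 scale. Slc45a2 had 1473 and 1686 normalised CPM under PBS and 305 and 772 after CDN2. Trpm1 had 954 and 1036 against 509 and 294, and was the only one of the 4 with its lower value in tumor 2. The order of the treated tumors was therefore not the same for every gene.

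Regulators, transport and receptor genes gave a mixed picture. Mitf had 510 and 367 under PBS and 85.0 and 253 with CDN2 (-1.37, SE 0.38, adjusted p 0.011), a call also lost without PBS tumor 1 (-1.13, adjusted p 0.074). Sox10 was 420 and 596 against 196 and 366 (-0.85, adjusted p 0.041), but did not stay past the threshold with each tumor left out. Tfap2a was 41.6 and 43.5 against 20.9 and 37.7 (-0.53, adjusted p 0.052), and Pax3 was 0.01 (SE 0.22). Myo5a, the melanosome motor myosin Va, had 529 and 240 under PBS and 123 and 128 with CDN2 and was called at -1.62 (SE 0.30), a call lost without PBS tumor 1 (-0.96, adjusted p 0.0089), and Rab27a, the small GTPase that recruits it, was lower by 0.90 on the log2 scale (adjusted p 0.0012). Mlph, the linker between them, gave 140 and 403 against 351 and 415 and was not called.

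Kit (16.8 and 13.5 under PBS, 3.38 and 6.35 with CDN2, -1.62, adjusted p 0.0013) and Met, the hepatocyte growth factor receptor (2238 and 1566 against 234 and 991, -1.63, adjusted p 0.011), were called lower, and the Met call was also lost without PBS tumor 1 (-1.37, adjusted p 0.07). Mc1r did not pass: it had 281 and 302 under PBS and 200 and 297 with CDN2 (-0.23, SE 0.21). Ednrb was 22.0 and 5.74 in the treated pair, either side of 16.6 and 8.40. Of the organelle biogenesis genes, only Hps5, a subunit of the BLOC-2 complex, was called (-1.05, adjusted p 0.014). Rab38 and Bloc1s6 were at -0.04 (SE 0.13) and -0.03 (SE 0.14), and Rab32 at 0.39 (SE 0.22).

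S100b was the member that rose. This calcium-binding protein is a melanoma serum marker and is also made by Schwann cells. It had 64.4 and 62.7 under PBS and 170 and 100 with CDN2 (1.09, SE 0.23, adjusted p 0.0023). The 4 Schwann cell markers summed to 76.2 and 79.4 under PBS and to 139 and 167 with CDN2, most of it Mbp. The part of these cells in S100b was not tested. Cdk2, a cell cycle kinase gene next to Pmel, was lower by 1.20 on the log2 scale (adjusted p 0.0029). Its annotated span (chr10:128697939-128705031) overlaps that of Pmel on the opposite strand, and since counting by strand was not stated, reads in the overlap cannot be assigned with certainty.

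Members did not share a common factor of change. In tumor 1, levels ran from 12.3% of the PBS mean for Met and 14.0% for Tyr through 48.1% for Dct and 72.8% for Mlana to 87.3% for Rab38 and 267% for S100b. In tumor 2 they ran from 29.6% for Trpm1 and 33.3% for Myo5a to 107% for Rab38 and 158% for S100b. The map of members by tumor shows this as a column of mixed depth.

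**Figure D3:**
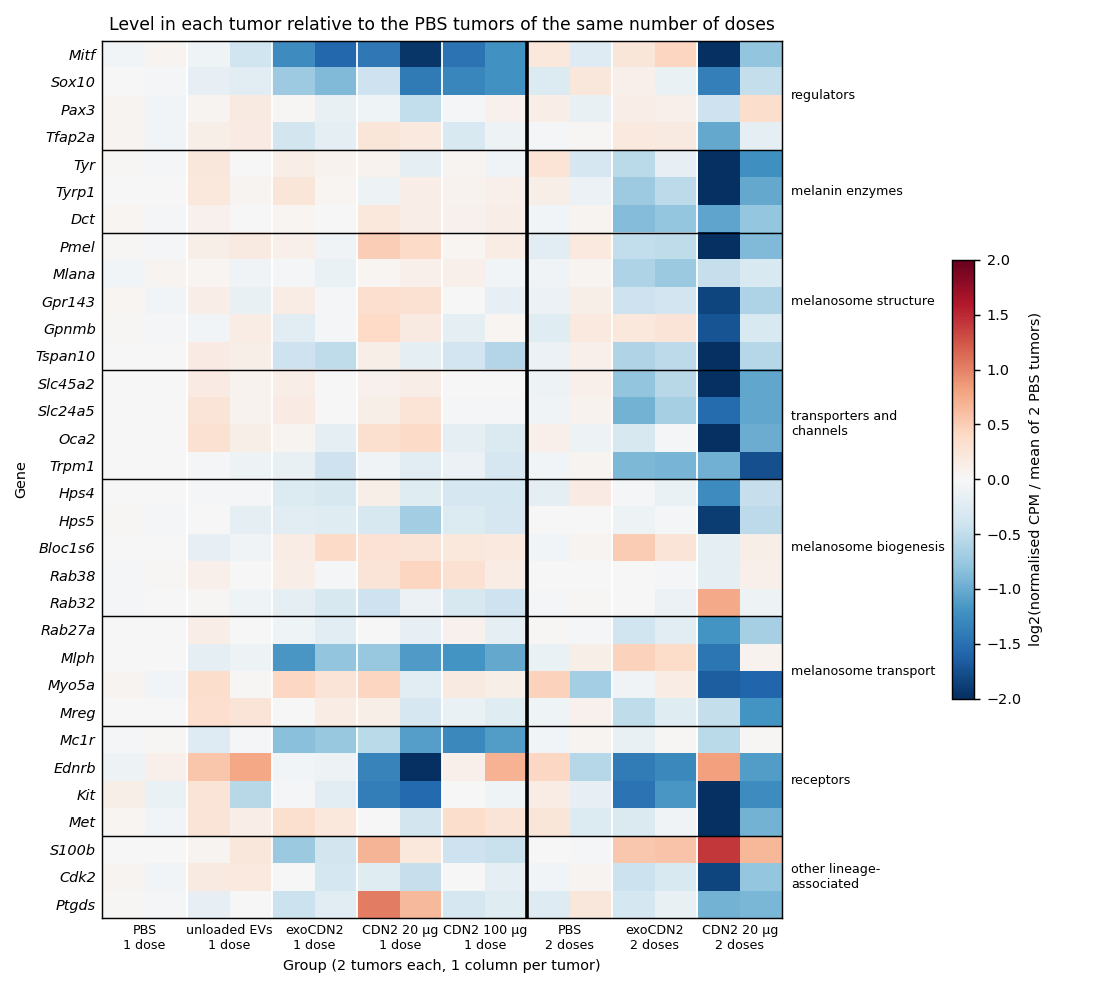
Each of the 32 tested members (rows, grouped by role) in each of 16 tumors (columns), as log2 of normalised CPM over the mean of the 2 PBS tumors of the same number of doses; blue is lower, red higher, and colors saturate at the ends of the scale. The last 2 columns, CDN2 at 20 µg after 2 doses, are the bluest, with S100b red in both.

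With 2 doses of exoCDN2, Kit was the only member to pass both limits (5.45 and 6.76 normalised CPM against 16.8 and 13.5 under PBS, -1.31, SE 0.30, adjusted p 0.01), where 2.48% of all genes were called lower and 11.3% either way, and the call was lost without PBS tumor 1 or exoCDN2 tumor 1. Without the limit on the ratio 5 members were lower and 0 higher, where 7.04% of all genes were lower at that threshold. The member median was -0.21.

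The 4 other members lower at an adjusted p under 0.05 were melanosome genes. Dct had 4063 and 4331 against 7128 and 7668 under PBS (-0.82, SE 0.12, adjusted p 0.00092), and Mlana 476 and 436 against 696 and 759 (-0.67, SE 0.12, adjusted p 0.0025). Slc24a5 had 373 and 453 against 684 and 753 (-0.80, SE 0.17, adjusted p 0.0066), and Trpm1 531 and 522 against 954 and 1036 (-0.92, SE 0.21, adjusted p 0.0095). All 4 had both treated tumors below both PBS tumors. Since they were picked by a test on the same values, this adds no support. Dct and Mlana stayed past the threshold with each tumor left out, while Slc24a5 and Trpm1 did not without exoCDN2 tumor 1 or PBS tumor 2, with adjusted p of 0.11 and 0.056 for Slc24a5 and 0.077 and 0.063 for Trpm1.

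Tyrp1, Slc45a2, Pmel and Tyr, also of the pigment core, did not pass. Tyrp1 had 5179 and 5940 against 9215 and 7872 (-0.62, adjusted p 0.18), Slc45a2 914 and 1077 against 1473 and 1686 (-0.67, adjusted p 0.15), Pmel 3675 and 3644 against 4489 and 5893 (-0.50, adjusted p 0.23), and Tyr 611 and 793 against 1079 and 702 (-0.34, adjusted p 0.58). In the fit without the pair given 2 doses of CDN2, added after seeing the data, Slc45a2, Tyrp1, Tspan10, Pmel and Gpr143 also passed an adjusted p of 0.05, with fold changes of -0.65, -0.61, -0.55, -0.49 and -0.38 on the log2 scale. Ednrb was then called lower (-1.33, adjusted p 0.0091) and S100b and Bloc1s6 were higher by 0.56 and 0.40, in a fit where 29.2% of all genes passed.

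Mitf, Sox10, Mlph and Mc1r had values near or above PBS in these tumors. Mitf had 518 and 593 normalised CPM against 510 and 367 under PBS (0.34, SE 0.38, adjusted p 0.58), Sox10 had 543 and 463 against 420 and 596 (-0.01, SE 0.31), Mlph had 527 and 494 against 351 and 415 (0.42, SE 0.34, adjusted p 0.45), and Mc1r had 262 and 298 against 281 and 302 (-0.06, SE 0.21). None of these passed a test. The ratio of Tyr to Mitf was 1.18 and 1.34 in the exoCDN2 tumors against 2.12 and 1.91 under PBS. It was below PBS, where after 1 dose it had been above. The PBS ratio itself was lower after 1 dose, at 1.24 and 1.09.

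**Figure D4:**
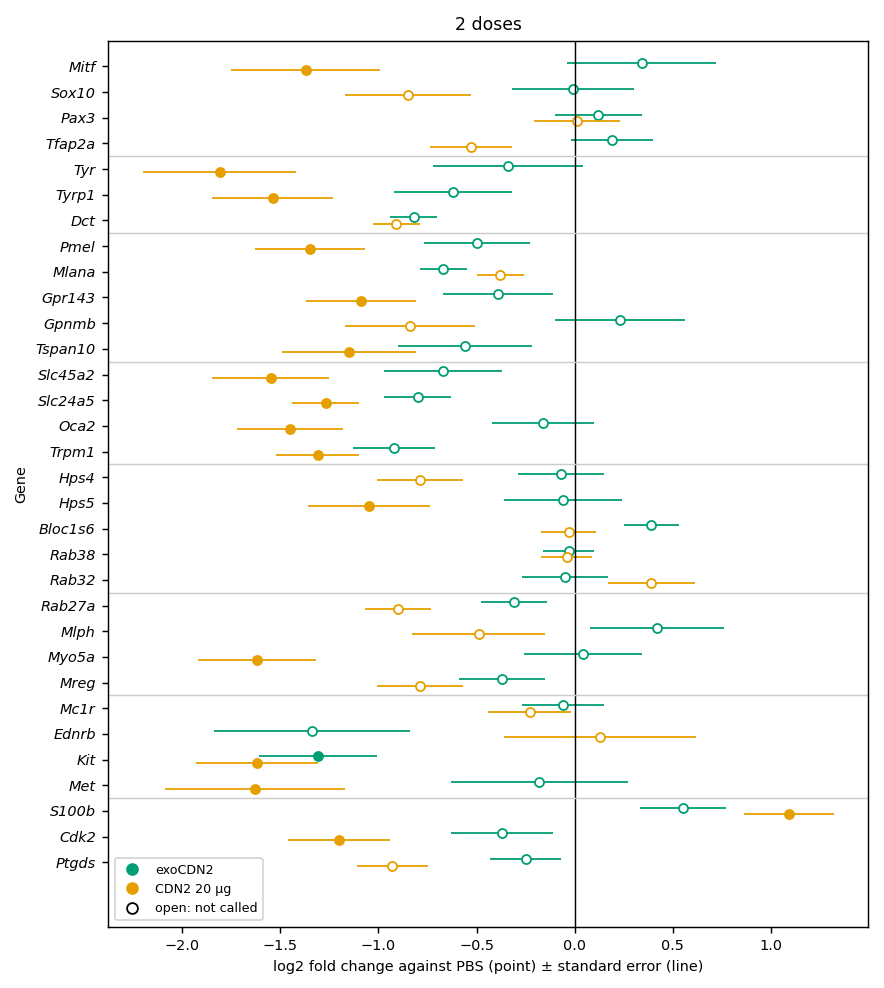
Log2 fold change against PBS after 2 doses (horizontal axis, point, with its standard error as a line) for the 32 tested members (vertical axis, grouped by role), for exoCDN2 and CDN2 at 20 µg; filled points were called. CDN2 points lie to the left for most members, while exoCDN2 points for Mitf, Sox10, Mlph and Mc1r lie close to 0 or to its right.

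The 2 treatments were compared directly after 2 doses, at unequal amounts of CDN2. Of 32 members, 6 were higher and 1 lower with exoCDN2 than with CDN2, where 7.34% of all genes were higher, 12% lower and 19.4% either way. Mitf was higher by 1.71 (SE 0.39, adjusted p 0.0071), Myo5a by 1.66 (adjusted p 0.0031), Tyr by 1.47 (adjusted p 0.013), Met by 1.46 (adjusted p 0.027), Oca2 by 1.29 (adjusted p 0.0053) and Gpnmb by 1.07 (adjusted p 0.027), and Ednrb was lower by 1.48 (adjusted p 0.039). Dct differed by 0.09 (SE 0.12, adjusted p 0.57), and Mlana was -0.30 (SE 0.12, adjusted p 0.069). With only the groups compared in the fit, no member was called. The count was 2 without CDN2 tumor 1, 18 without CDN2 tumor 2, 4 without exoCDN2 tumor 1 and 3 without exoCDN2 tumor 2. Mitf, Oca2 and Myo5a kept an adjusted p under 0.05 in all 4 of those fits. Without CDN2 tumor 1 the calls of Tyr (0.88), Met (0.76), Oca2 (0.84), Gpnmb (0.53) and Ednrb (-0.22) were lost. Those of Met, Gpnmb and Ednrb were also lost without either exoCDN2 tumor, with adjusted p of 0.061 and 0.11 for Met, 0.073 and 0.097 for Gpnmb and 0.14 and 0.14 for Ednrb, and that of Tyr without exoCDN2 tumor 2 (adjusted p 0.082).

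Whether a treatment acted differently at the second dose than at the first was tested as an interaction. For CDN2 at 20 µg, 11 members were called lower and 0 higher, where 5.16% of all genes were lower and 16.8% called either way. They were the 3 enzymes Tyr (-1.76, SE 0.54, adjusted p 0.037), Tyrp1 (-1.56, SE 0.43, adjusted p 0.024) and Dct (-1.08, SE 0.17, adjusted p 0.0032), all 4 transporters and channels, Pmel (-1.79), Gpr143 (-1.40), Myo5a (-1.76) and Ptgds (-1.78). None of the 4 regulators was among them: Mitf was lower at both doses, and its interaction was 0.28 (SE 0.53, adjusted p 0.73). The count was 5 without tumor 2 of the 1-dose PBS group, 6 without its tumor 1 or without tumor 1 given CDN2 once, and 19 without tumor 2 of the group given 2 doses of CDN2.

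For exoCDN2, edgeR called 0 members (6.82% of all genes called), 4 were higher and 5 lower at an unadjusted p under 0.05, and DESeq2 called 3. Dct (-0.85, SE 0.17, adjusted p 0.013) and Slc24a5 (-0.88, SE 0.24, adjusted p 0.042) were lower at an adjusted p under 0.05 alone. Mitf was 1.75 (SE 0.54, adjusted p 0.07) and Mlph 1.38 (SE 0.49, adjusted p 0.11), in the opposite direction. The PBS groups enter this value too, with mean Mitf of 647 normalised CPM after 1 dose and 439 after 2 doses. In the fit without the pair given 2 doses of CDN2, Mitf (1.73, adjusted p 0.0031), Mlph (1.36, adjusted p 0.0021) and S100b (1.08, adjusted p 0.0078) were called higher and Kit (-1.20, adjusted p 0.031) lower, so in that fit the regulator and the linker moved one way between doses and Dct, Slc24a5, Slc45a2, Tyrp1, Trpm1 and Mlana the other.

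As a summed level, the pigment core was 24501 and 25176 normalised CPM under PBS after 2 doses, 15461 and 16684 with exoCDN2 and 7662 and 13426 with CDN2. As a share of all counts it was 2.63% and 2.53%, 1.62% and 1.80%, and 0.63% and 1.29%. All 33 members together were 4.03% and 3.94% of counts under PBS, 2.98% and 3.27% with exoCDN2 and 1.02% and 2.19% with CDN2. After 1 dose these shares were 3.36% to 3.88% in all 10 tumors.

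Markers of other cell types moved with the 2-dose groups. In the 2 CDN2 tumors, 4 skeletal muscle genes summed to 3144 and 1550 normalised CPM against 141 and 257 under PBS, 5 neutrophil genes to 839 and 189 against 1.90 and 1.53, 6 fibroblast genes to 1831 and 857 against 352 and 352, 8 macrophage and monocyte genes to 744 and 403 against 266 and 218, 5 mast cell genes to 53.5 and 21.2 against 4.41 and 6.43 and 4 adipocyte genes to 78.8 and 25.1 against 27.2 and 21.9. For each of these 6 lists tumor 1, with the lower pigment core, had the higher sum. Called higher were 3 of 4, 5 of 5, 4 of 6, 5 of 8, 3 of 5 and 0 of 4, in that order. In addition, 1 macrophage gene, Mrc1, was called lower (5.74 and 6.78 against 25.6 and 11.2). Adgre1 (14.0 and 14.8 against 18.3 and 13.1) and Lyz2 (99.6 and 76.2 against 134 and 110) did not lie above both PBS tumors. Cd14 alone was 250 and 57.5 against 4.06 and 2.60. Not every gene of a list had its higher value in tumor 1. Of the macrophage genes, Adgre1, Mrc1 and C1qa (104 and 108) did not. Of the fibroblast genes, Dcn (1242 and 183), Lum and Pdgfra were higher in tumor 1. Col1a1 (86.5 and 146), Col1a2 (228 and 234) and Col3a1 (183 and 262) were higher in tumor 2. Most of the adipocyte sum was Fabp4, at 76.7 and 23.0. The 6 T and NK cell genes (11.5 and 18.7 against 1.98 and 1.18, 4 called higher) and the 4 Schwann cell genes (139 and 167 against 76.2 and 79.4, 2 called higher) had the higher sum in tumor 2. Among defining genes, Ly6g of neutrophils was 6.25 and 1.38 in these tumors and at or under 3 counts in 13 of the 18 tumors, and Ms4a2 of mast cells was at or under 3 counts in 17.

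In the exoCDN2 tumors after 2 doses, 6 T and NK cell genes summed to 47.5 and 32.4 against 1.98 and 1.18 under PBS, macrophage and monocyte genes to 531 and 382, and fibroblast genes to 981 and 435, with 5 of 6, 4 of 8 and 2 of 6 called higher. The 5 neutrophil genes summed to 56.8 and 17.4 against 1.90 and 1.53, with 4 called higher. Skeletal muscle genes were at 147 and 146, within the PBS range. B cell genes summed to at most 1.40 in every tumor, with Ms4a1 at or under 3 counts in 12. Keratinocyte genes were erratic between tumors of a group, at 74.0 and 0.0563 with exoCDN2 and 20.8 and 1.30 with CDN2 against 0.429 and 0.0438 under PBS. Endothelial genes were 106 and 112 with exoCDN2, 60.0 and 94.0 with CDN2 and 107 and 104 under PBS. Their part in the pigment gene values was not tested.

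**Figure D5:**
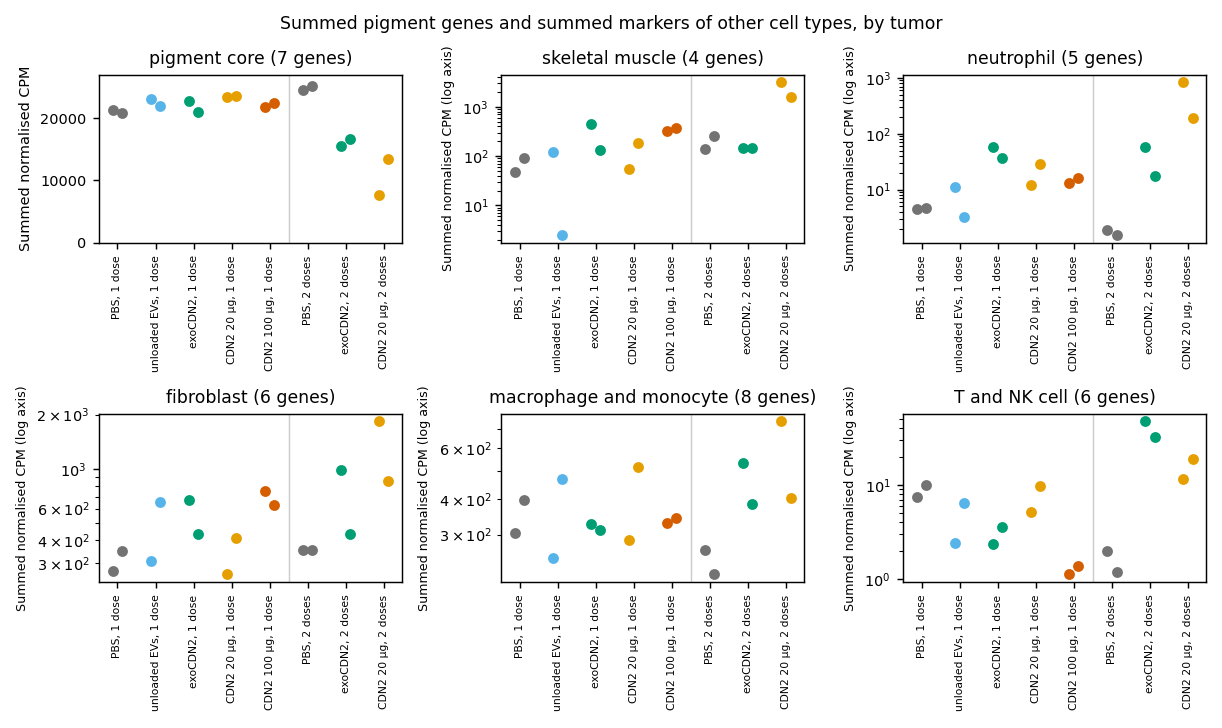
Summed normalised CPM of the pigment core (linear axis from 0) and of markers of 5 other cell types (log axes) in each tumor, by group, with 1 point per tumor. The pigment core is lowest in the 2 tumors given 2 doses of CDN2, at 7662 and 13426, where the muscle and neutrophil sums are highest.

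Other genes of the pathway were taken from 4 further lists. Of 31 tested other pigment pathway genes, 2 rose and 6 fell with 2 doses of CDN2, with a median log2 fold change of -0.48, where 20% of all genes were called higher and 10.6% lower. In this list 1 rose and 0 fell with 2 doses of exoCDN2 (median 0.01), where 11.3% of all genes were called either way, and 0, 0 and 1 were called with exoCDN2, CDN2 at 20 µg and CDN2 at 100 µg after 1 dose. Those that fell with CDN2 included the sorting subunit Ap3d1 (-1.02), the Rab27 effector Sytl2 (-1.35) and the BLOC-2 subunit Hps3 (-1.29), and Rab17 fell at 100 µg after 1 dose (-1.59, adjusted p 0.022). The gene that rose in both 2-dose groups was Cited1, a transcriptional cofactor, with 34.6 and 48.1 normalised CPM under PBS. It had 141 and 98.8 with exoCDN2 (1.53, adjusted p 0.0033) and 103 and 80.3 with CDN2 (1.14, adjusted p 0.0061). After 1 dose Cited1 had 70.9 and 61.6 under PBS, 65.7 and 116 with unloaded EVs and 116 and 81.9 with CDN2 at 20 µg. With 1 dose of exoCDN2 it had 35.1 and 40.6, called lower than with unloaded EVs (-1.26, adjusted p 0.03). 

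Of 14 tested other regulators and ligands, 2 rose and 1 fell with 2 doses of exoCDN2 and 5 rose and 1 fell with CDN2, beside the same shares of all genes. Snai2, a neural crest factor, had 2.75 and 2.85 under PBS and rose after 1 dose of exoCDN2 to 10.4 and 11.2 (1.95, adjusted p 0.0039) and of CDN2 at 20 µg to 7.53 and 9.30 (1.58, adjusted p 0.012). Adamts20, a protease needed for melanoblast survival, fell with CDN2 at 20 µg after 1 dose (-1.39, adjusted p 0.0083) and in both 2-dose groups, from 14.1 and 13.8 under PBS to 3.52 and 5.86 with exoCDN2 (-1.57, adjusted p 0.0012) and 3.60 and 3.46 with CDN2 (-1.98, adjusted p 0.00015). Tfec, a relative of MITF that macrophages also express, rose by 1.94 and 2.78 in these groups, and Edn1, the ligand of EDNRB, by 2.42 and 4.39.

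Of 11 tested other MITF targets, 1 rose with each 2-dose treatment (Prkcb with exoCDN2, 2.47, adjusted p 0.0057, and Gpm6b with CDN2, 2.28, adjusted p 0.0013) and 0 fell, and the medians were 0.22 and -0.24. Of 14 tested dedifferentiation genes, which mark melanoma states of low MITF, 6 rose and 1 fell with exoCDN2 after 2 doses (median 0.90) and 8 rose and 1 fell with CDN2 (median 1.91). Of all genes, 11.3% were called either way with exoCDN2 and 2.48% lower, and with CDN2 20% were called higher and 10.6% lower. Axl rose by 4.73 and 4.50 on the log2 scale, although Axl itself was lower under PBS after 2 doses than after 1 (-2.57, adjusted p 0.0026), and Tgfbi rose by 3.72 with exoCDN2. Jun, an AP-1 subunit, rose after 1 dose of CDN2 at 20 µg (3.05, adjusted p 0.00048) and 100 µg (2.28, adjusted p 0.0041). Fibroblasts and macrophages also express Axl and Tgfbi, and the part of those cells in these values was not tested.

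In the 2 tumors given 2 doses of CL656 with no amount in their labels, members ranged from below to above the PBS pair of the same number of doses. The pigment core summed to 22697 and 26486, Tyr was 895 and 925, Mitf 400 and 283 and Kit 13.0 and 8.10 normalised CPM. Of 32 members, 19 overlapped the PBS pair, 11 were below both PBS values in both tumors, Dct (6572 and 5548) and Trpm1 (676 and 567) among them, and 2 were above. Of all genes tested, 69.4% overlapped the PBS pair, 15.6% were below it, and 2533 of 16927 were above.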

How the data were processed

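Bulk RNA from 18 B16F10 tumors was sequenced as paired reads. The authors aligned reads to the mouse genome with OSA, with mm10 (GRCm38) named in the labels, and the deposited values are RSEM expected counts per gene, neither normalised nor filtered. Of these values 8.75% to 12.68% per tumor were not whole, and they were rounded here. Whether counting used the strand is not given in the sources used here. Totals of 21608895 to 65983630 set the counting precision, and the spread between 2 tumors per group limited the tests.

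Groups came from the sample labels. edgeR 4.0.16 (R 4.3.3) was used with filterByExpr (minimum count 10, minimum total 15), TMM factors and a quasi-likelihood fit with a mean for each of 8 groups over 16 tumors (8 residual degrees of freedom, biological coefficient of variation 0.22), for 13 comparisons. The Benjamini-Hochberg adjustment ran over all 16927 tested genes. A call needed an adjusted p below 0.05 and more than a ratio of 2. Symbols came from GENCODE M21 and matched 50376 of 50600 identifiers. Alternatives were DESeq2 1.42.0, RLE factors, no filter, only the groups compared, no ratio limit, pooled PBS tumors, the replicate number as a block and each tumor left out. The scripts were tested on simulated data. The text names members that passed a test, those needed to describe each role, and the strongest calls of each further list. The members and lists were chosen with earlier results of these data known, and the further lists support nothing independently. Promoter sequences and motif searches used RefSeq windows on GRCm38.p6. Values of a few single genes are not reported here.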

Additional observations from a re-analysis of the deposited data

Results flagged for a closer look

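The change with CDN2 at 20 µg against PBS differed between 2 doses and 1 dose for 11 members by the edgeR interaction test. On the log2 scale, 2 doses minus 1 dose, the differences were -1.76 for Tyr, -1.56 for Tyrp1, -1.08 for Dct, -1.79 for Pmel, -1.40 for Gpr143, -1.66 for Slc45a2, -1.47 for Slc24a5, -1.80 for Oca2, -1.17 for Trpm1, -1.76 for Myo5a and -1.78 for Ptgds. Pmel, Dct, Slc24a5, Oca2 and Ptgds kept an adjusted p under 0.05 with each of the 8 tumors left out in turn.

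In the 2 tumors with no amount of CL656 in their labels, which entered no comparison, 2 members lay above both PBS tumors given 2 doses, as did 2533 of the 16927 genes tested. Tfap2a had 65.8 and 46.2 normalised CPM against 41.6 and 43.5, and S100b had 66.1 and 95.7 against 64.4 and 62.7.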

How the results depend on the processing

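No fold change of a member past an adjusted p of 0.05 changed direction under the alternatives run, and members short of it were not followed. With only the groups compared in the fit, 24 of these results kept an adjusted p under 0.05 and 42 lost it. With DESeq2, members called went from 0 to 1 for exoCDN2 against PBS (1 dose), 1 to 4 for CDN2 at 100 µg against PBS, 1 to 2 for exoCDN2 against PBS (2 doses), 1 to 3 for exoCDN2 against CDN2 at 20 µg (1 dose), 0 to 1 for exoCDN2 against unloaded EVs, 1 to 3 for 100 µg against 20 µg and 0 to 3 for the exoCDN2 interaction. With no filter the same comparisons gave 1, 4, 2, 4, 1, 3 and 5. Without both tumors given 2 doses of CDN2, a choice made after seeing the data, they gave 1, 4, 2, 3, 1, 3 and 4. With only the groups compared in the fit they gave 1, 4, 4, 1, 3 and 4 (exoCDN2 against PBS after 2 doses stayed within 1.5 times), while CDN2 against PBS after 2 doses went from 16 to 8, exoCDN2 against CDN2 after 2 doses from 7 to 0 and the CDN2 interaction from 11 to 3. Without the ratio limit, exoCDN2 against PBS after 2 doses gave 5, exoCDN2 against CDN2 after 2 doses 18 and the exoCDN2 interaction 2. Pooling the 4 PBS tumors gave 2 at 100 µg. Why these counts moved was not tested. Leaving out each tumor in turn gave 0 to 2 members for CDN2 at 20 µg against PBS after 1 dose, 0 to 0 for 100 µg against PBS, for 100 µg against 20 µg and for exoCDN2 against CDN2 after 1 dose, 0 to 1 for exoCDN2 against PBS after 2 doses and for its interaction, 10 to 24 for CDN2 against PBS after 2 doses, 2 to 18 for exoCDN2 against CDN2 after 2 doses and 5 to 19 for the CDN2 interaction. Of the 40 calls of single members over all comparisons, refitted 204 times in this way, 131 refits kept the call and 73 lost it. In each refit the lone tumor of a group was assumed to vary like the other groups.

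Over all genes, calls went from 444 to 1300 for exoCDN2 against PBS (1 dose) and from 413 to 1352 for 100 µg with only the groups compared, from 103 to 707 for exoCDN2 against CDN2 (1 dose) and from 77 to 800 for 100 µg against 20 µg with no filter, and from 3279 to 30 for exoCDN2 against CDN2 (2 doses) with only the groups compared. Deviations of tumors that share a replicate number had correlations of -0.13 to 0.31 over comparisons with 2 pairs each. The highest was for exoCDN2 against CDN2 after 2 doses. With so few tumors these values cannot show whether the numbers mark pairs. No label ties the numbers, so they were not taken as pairs. With the replicate block, exoCDN2 against CDN2 after 1 dose gave 0 members, CDN2 against PBS after 2 doses gave 16 and the CDN2 interaction 11, and 4 single-member calls were lost. With the numbers of the CDN2 2-dose pair crossed the count was again 16.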

Other observations

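In the 2 tumors given 2 doses of CL656 with no amount in their labels, the 11 members below both PBS tumors of 2 doses were Dct, Gpr143, Slc24a5, Trpm1, Hps5, Rab38, Rab32, Rab27a, Mc1r, Kit and Cdk2. Slc24a5 had 564 and 598 normalised CPM against 684 and 753, and Mc1r had 231 and 220 against 281 and 302. The ratio of Tyr to Mitf was 2.24 and 3.26.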
